A study of Mus musculus with 4 samples.

Results

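The D-type cyclins, the inhibitors of cyclin-dependent kinases (CDKs) and the retinoblastoma gene Rb1 were followed in cultured mouse astrocytes from wild-type (WT) animals and from animals labelled Tet1 knockout (KO). The 10 genes were taken by name: Ccnd1, Ccnd2 and Ccnd3, Cdkn1a and Cdkn1b, Cdkn2a, Cdkn2b, Cdkn2c and Cdkn2d, and Rb1. All 10 were among the 25393 genes listed in the deposited table, and all 10 passed the filter on low values, a mean of at least 1 normalized count, that left 22094 genes for testing. There were 2 libraries with the genotype label wild type and 2 with the label tet1-/-. The mice were untreated C57BL/6 animals of postnatal day 1, and the KO is constitutive rather than limited to astrocytes. Each isolation pooled cortex and hippocampus of 2 mice, and the cells were grown in a coated flask for about 7 days, purified by shaking at 260 rpm and collected 24 h later. The study describes its RNA-seq repeats as biological, and reports more of them per genotype than the 2 libraries used here. The labels do not say which libraries came from separate cultures. The p-values therefore measure only the spread between these libraries, part of which may be technical.

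In the G1 phase of the cell cycle, D-type cyclins bind the kinases Cdk4 and Cdk6. The complexes phosphorylate the retinoblastoma protein and its relatives, which releases E2F transcription factors and lets the cell enter S phase. The inhibitors belong to 2 families. INK4 proteins (Cdkn2a to Cdkn2d) bind Cdk4 and Cdk6 themselves, whereas the CIP/KIP proteins (here Cdkn1a and Cdkn1b) bind complexes of cyclin and CDK. Astrocytes of newborn mice still divide in culture and leave the cell cycle as they mature.

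The reads on genes ranged from 18749610 to 22673555 per library, and 1 read was worth 0.901 to 1.07 normalized counts. Tet1 itself was not lower in the KO-labelled libraries, with 266 and 121 normalized counts in WT, against 173 and 463 in the KO-labelled libraries. Reads per gene do not separate transcripts with and without a targeted exon, and every direction below rests on the label. Gfap, the intermediate filament of astrocytes, was at 687 and 765 FPKM (reads over gene length and over all reads on genes in the library) in WT and at 1871 and 117 FPKM in the KO-labelled libraries. The 10 astrocyte markers summed to 1773 to 1901 FPKM in WT and to 477 to 3028 FPKM in the KO-labelled libraries, a sum of which Gfap was the largest part. One by one, 8 of the 10 had a negative difference (median log2 difference -0.73). In both KO-labelled libraries, 5 were below WT (Aqp4, Aldh1l1, Slc1a2, Slc1a3 and Sox9) and 1 above (Gja1). Over all tested genes, 25.4% were below and 22.5% above in this way. At an unadjusted p under 0.05 in limma, 2 were lower, beside 9.18% of all tested genes. The 12 microglia markers summed to 70.0 to 112 FPKM in WT and to 16.4 to 25.7 FPKM in the KO-labelled libraries. Markers of neurons summed to 19.5 and 23.6 FPKM in WT, against 29.3 and 30.2 FPKM, most of it from Stmn2 and Map2. Of the 7 tested (median log2 difference 1.66), 5 were higher in both KO-labelled libraries, beside 22.5% of all tested genes. Among these, 2 were near the floor. Rbfox3 had 1.07 and 0.92 normalized counts in WT, against 55.7 and 1.80, and Dcx had 1.07 and 0 against 7.49 and 4.51. Markers of endothelial cells summed to 0.551 and 1.05 FPKM in WT, against 1.45 and 1.32 FPKM. Of the 5 listed, 2 had a positive and 3 a negative difference (median log2 difference -0.05). Most of the sum came from Kdr in KO replicate 1 (1.24 FPKM, against 0.208 in KO replicate 2). In KO replicate 2 it came from Flt1 (0.780 FPKM, against 0.0751 in KO replicate 1). The 10 genes of cycling cells (Mki67, Top2a and others) summed to 24.0 to 53.1 FPKM in WT and to 86.0 to 151 FPKM in the KO-labelled libraries.

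By level per gene length, the means over the 4 libraries came in the order Ccnd1 (145 FPKM), Ccnd2 (88.2), Cdkn1a (85.3), Cdkn2b (54.4), Cdkn1b (42.9), Cdkn2a (20.1), Cdkn2c (19.4), Cdkn2d (13.7), Ccnd3 (13.1) and Rb1 (7.07). Ccnd1 lay above 99.0% of the listed genes and Rb1 above 74.1%. Only between Cdkn1b and Cdkn2a did the ranges of neighbours in this order stay apart. Ccnd3 was above Rb1 in each of the 4 libraries although their ranges overlapped. The other neighbours changed places in at least 1 library. The reads behind the values ran from 218 for Cdkn2a in KO replicate 2 to 34031 for Ccnd2 in the same library.

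Of the D-type cyclins, Ccnd2 was the one whose libraries were separated by label. Ccnd2 (ENSMUSG00000000184, mm10 chr6:127125162-127152193, minus strand), the cyclin prominent in dividing neural progenitors, had 8127 and 11286 normalized counts in WT, against 18867 and 30673 in the KO-labelled libraries. Both KO-labelled libraries exceeded both WT libraries, and the mean was 2.55 times that of WT. The means were 9706 ± 2234 (SD, n = 2) and 24769.8 ± 8348 (SD, n = 2). On the log2(normalized count + 1) scale the difference was 1.33 (standard error 0.40, 95% interval 0.33 to 2.32), with an unadjusted p of 0.018 and an adjusted p of 0.279 from limma. In DESeq2 on recovered reads the difference was 1.35 (adjusted p = 0.077), so no tool called Ccnd2 after adjustment. Without WT replicate 1, WT replicate 2 or KO replicate 2, with differences down to 0.98, the unadjusted p of Ccnd2 in limma was no longer under 0.05. The genes of cycling cells were higher in the same 2 libraries (10 of 10, beside 22.5% of all tested genes). Their sums are given above, and none was at 0 in all libraries. Their part in the Ccnd2 difference was not tested. In bulk RNA, fewer or more cells of a type and less or more RNA per cell cannot be told apart.

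Ccnd1 (ENSMUSG00000070348, chr7:144929931-144939925, minus strand), a cyclin that growth factors induce, had the highest mean level of the members. It had 7629.9 and 14547 normalized counts in WT, against 8276 and 25735 in the KO-labelled libraries. KO replicate 1 lay between the WT libraries and KO replicate 2 above both, so the groups overlapped. The difference was 0.47 on the log2 scale (standard error 0.64, 95% interval -1.15 to 2.09, adjusted p = 0.781 from limma), and it was -0.35 without KO replicate 2. Ccnd3 (ENSMUSG00000034165, chr17:47505051-47599691, plus strand) was the lowest D-type cyclin, with 1939.7 and 2547 normalized counts in WT, against 3418 and 1744 in the KO-labelled libraries. Here KO replicate 1 was the highest and KO replicate 2 the lowest of the 4, the reverse of their order for Ccnd1 and Ccnd2. The log2 difference of 0.14 (standard error 0.42, adjusted p = 0.91 from limma) turned to -0.35 without KO replicate 1.

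**Figure D1:**
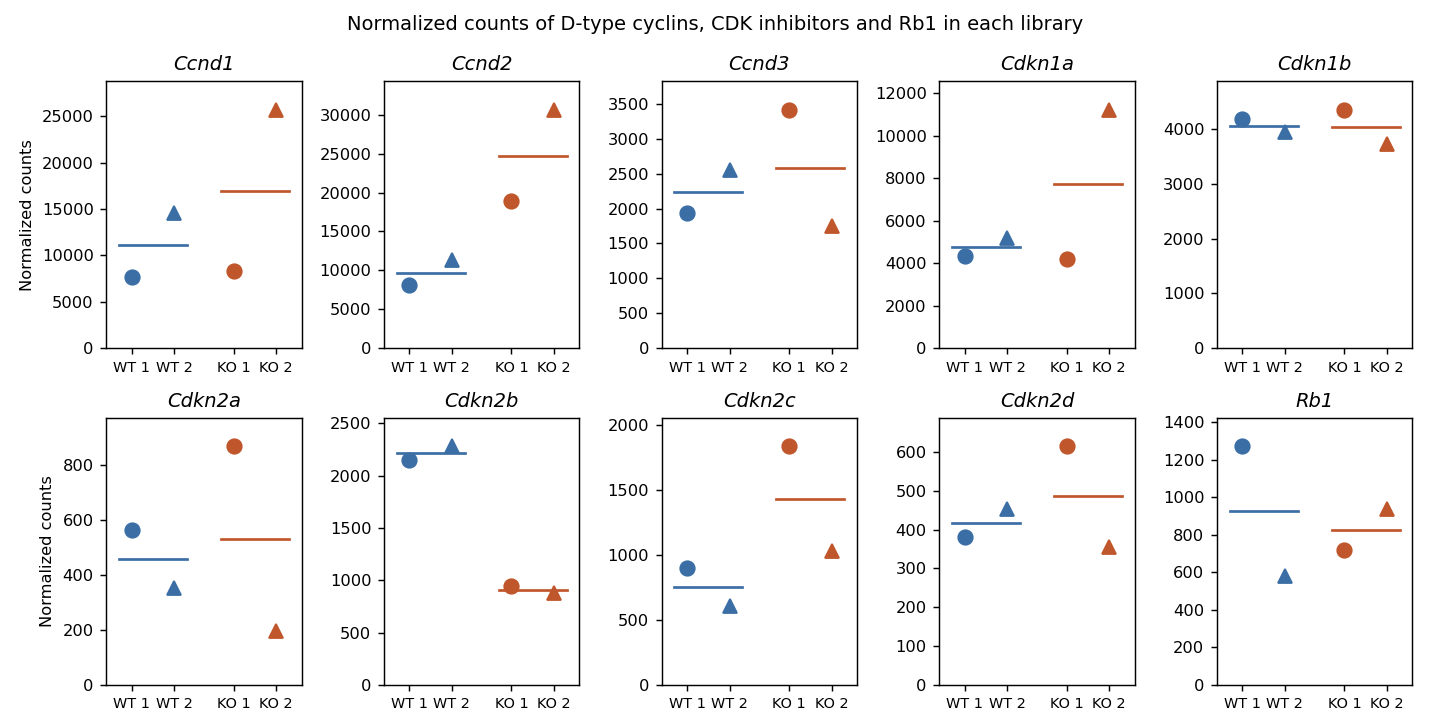
Normalized counts (linear axes from 0, with a scale of their own per gene) in WT replicates 1 and 2 and in the KO-labelled libraries, replicates 1 and 2. Points are libraries and lines are group means (n = 2). Ccnd2 and Cdkn2c lie higher and Cdkn2b lower in both libraries labelled KO, while the groups overlap for the other 7 genes.

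Within a library, the share of each cyclin in the summed FPKM of the 3 does not depend on the scaling between libraries. Ccnd2 made up 31.9% and 26.2% of the sum in WT and 48.3% and 36.5% in the KO-labelled libraries. The mean share was higher by 13.3 percentage points, without overlap (exact permutation test over libraries, two-sided p = 0.33, the smallest p that 2 against 2 allows). The ratio of Ccnd2 to Ccnd1 in FPKM was 0.533 and 0.388 in WT, against 1.14 and 0.596 in the KO-labelled libraries. Ccnd1 accounted for 59.9% and 67.5% in WT and for 42.3% and 61.2% in the KO-labelled libraries, which overlapped (exact permutation p = 0.67). Ccnd3 stayed under 10% of the sum in every library, from 2.23% to 9.38%. Ccnd1 therefore led the sum in 3 libraries and Ccnd2 led in KO replicate 1.

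The CIP/KIP inhibitors showed no separation by label. Cdkn1a (ENSMUSG00000023067, chr17:29090976-29100727, plus strand) encodes p21, a classical target of p53, and had 4334 and 5205 normalized counts in WT, against 4209 and 11227 in the KO-labelled libraries. KO replicate 1 was just below both WT libraries and KO replicate 2 far above them. The log2 difference of 0.53 (standard error 0.52, 95% interval -0.77 to 1.83, adjusted p = 0.682 from limma) turned to -0.17 without KO replicate 2. Cdkn1b (ENSMUSG00000003031, chr6:134920401-134925513, plus strand) encodes p27, which holds cells in quiescence. It had 4183 and 3957 normalized counts in WT, against 4359.7 and 3733 in the KO-labelled libraries, a log2 difference of -0.01 (standard error 0.28, adjusted p = 0.991 from limma). The 95% interval, -0.71 to 0.69, does not cover a 2-fold difference in either direction. Its highest library was 1.06 times the lower one in WT and 1.17 times in the KO-labelled libraries.

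Of the INK4 genes, Cdkn2b was lower in the KO-labelled libraries, with a smaller gap between those 2 libraries than any other member had. Cdkn2b (ENSMUSG00000073802, chr4:89306299-89311039, minus strand) encodes p15, an inhibitor of Cdk4 and Cdk6 that TGF-beta is known to induce. It had 2148 and 2281 normalized counts in WT, against 942 and 874 in the KO-labelled libraries. The 2 libraries of a label differed by no more than 1.08-fold, and both KO-labelled libraries lay below both WT libraries. The mean of WT was 2.44 times that of the libraries labelled KO, 2214 ± 93.8 against 908 ± 47.8 (SD, n = 2 each). The log2 difference was -1.29 (standard error 0.27, 95% interval -1.97 to -0.60), with an unadjusted p of 0.0043 and an adjusted p of 0.194 from limma. The 4 differences between single libraries ran from -1.38 to -1.19. DESeq2 on the recovered reads called the gene (-1.29, adjusted p = 0.0302), and edgeR did not (-1.33, adjusted p = 0.19). The microglia markers summed to less in the same 2 libraries, at 70.0 and 112 FPKM in WT against 25.7 and 16.4. All 12 had a negative difference, and 11 were below WT in both KO-labelled libraries (25.4% of all tested genes). In limma, 8 were lower at an unadjusted p under 0.05 (9.18% of all tested genes). DESeq2 called 7 as lower (4.62% of its tested genes). Tmem119 overlapped between the labels, P2ry12 had at most 6.40 normalized counts, and none was at 0 in all libraries. The part of the microglia markers in the Cdkn2b difference was not tested.

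Cdkn2b lies next to Cdkn2a on chromosome 4, with 11646 bases between them, and both are read from the minus strand. Cdkn2a (ENSMUSG00000044303, chr4:89274471-89294653) encodes p16Ink4a and, from another first exon, p19Arf, an activator of p53. A count per gene does not separate the transcripts. Cdkn2a had 563 and 354 normalized counts in WT, against 869 and 196 in the KO-labelled libraries. KO replicate 1 was the highest and KO replicate 2 the lowest, a 4.42-fold gap that was the widest within a label among the members. Its log2 difference was -0.11 (standard error 0.75, 95% interval -1.99 to 1.77, adjusted p = 0.961 from limma), and its sign changed with the tool, to 0.22 in DESeq2 and 0.18 in edgeR. The gene Mtap, on the other side of Cdkn2a, was the only other gene within 500000 bases of Cdkn2b with a mean of at least 50. Mtap had 856 and 1007 normalized counts in WT, against 944 and 2357 in the KO-labelled libraries (log2 difference 0.68, standard error 0.49, adjusted p = 0.582 from limma). Mtap was named after its values were seen.

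Tet1 oxidises methylated cytosine, most of which lies in CpG dinucleotides, so the start sites of these 2 neighbours are shown with their CpGs in capitals. Each window holds 250 bases before and 50 after a start site, from RefSeq on GRCm38.p6, 5′ to 3′ on the gene's strand. The Cdkn2b window (chr4:89310983-89311282, minus strand) has 18 CpGs. The first Cdkn2a window (chr4:89294570-89294869, minus strand) has 45 and the second (chr4:89282143-89282442, minus strand), 12427 bases further along the gene, has 12. The first window of Cdkn2c (chr4:109666707-109667006, minus strand), an INK4 gene with a difference in the other direction, has 33.
Cdkn2b: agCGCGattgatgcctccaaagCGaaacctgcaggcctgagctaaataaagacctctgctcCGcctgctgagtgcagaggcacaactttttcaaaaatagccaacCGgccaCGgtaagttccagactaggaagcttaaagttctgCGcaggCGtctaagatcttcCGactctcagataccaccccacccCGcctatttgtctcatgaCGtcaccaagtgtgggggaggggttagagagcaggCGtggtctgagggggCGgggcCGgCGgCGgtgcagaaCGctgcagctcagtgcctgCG
Cdkn2a first: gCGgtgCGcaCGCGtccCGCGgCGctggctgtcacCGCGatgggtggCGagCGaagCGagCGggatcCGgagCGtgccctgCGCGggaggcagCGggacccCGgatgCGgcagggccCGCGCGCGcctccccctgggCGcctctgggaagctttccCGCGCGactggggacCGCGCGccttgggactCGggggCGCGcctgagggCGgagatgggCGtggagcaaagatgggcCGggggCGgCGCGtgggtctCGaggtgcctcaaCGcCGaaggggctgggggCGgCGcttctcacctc
Cdkn2a second: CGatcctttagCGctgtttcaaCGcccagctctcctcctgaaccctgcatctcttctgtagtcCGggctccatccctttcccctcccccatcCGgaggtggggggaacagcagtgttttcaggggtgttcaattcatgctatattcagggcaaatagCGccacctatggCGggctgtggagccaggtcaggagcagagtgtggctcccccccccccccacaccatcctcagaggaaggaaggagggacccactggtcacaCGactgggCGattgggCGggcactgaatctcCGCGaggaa
Cdkn2c first: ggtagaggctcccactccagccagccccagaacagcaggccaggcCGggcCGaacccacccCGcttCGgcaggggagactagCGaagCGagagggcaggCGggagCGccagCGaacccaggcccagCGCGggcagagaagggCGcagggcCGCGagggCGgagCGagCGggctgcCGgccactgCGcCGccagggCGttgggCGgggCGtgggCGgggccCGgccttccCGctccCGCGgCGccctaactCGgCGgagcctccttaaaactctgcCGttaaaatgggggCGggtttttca

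The median over the 32851 windows of that table was 7 CpGs, and 70.3% of the windows had fewer than the Cdkn2b window, 98.1% fewer than the first Cdkn2a window, 60.4% fewer than the second and 91.4% fewer than the first Cdkn2c window. In all, 7 of the 10 members had windows in the table, 11 windows together, and Ccnd1, Ccnd2 and Rb1 had none. The lowest count was 2 CpGs, at the first Cdkn1a window, and the second Cdkn1a window had 23. On either strand, the CRE motif TGACGTCA stood in the Cdkn2b window and in none of the other member windows, and 1.79% of all windows hold it. An E2F motif (TTTCGCGC, TTTGGCGC, TTTCCCGC or TTTGCCGC) stood in the first Cdkn2a window alone, against 2.26% of all windows. The GC box GGGCGG was found in 9 of the 11 windows and in 35.7% of all windows. The second Cdkn2c window held the E-box CACGTG, which 7.15% of all windows hold. No member window held TATAAA (13.6% of all windows) or TGANTCA, the AP-1 motif (7.81%). These are matches of letters, not measured binding sites, and methylation was not analysed here.

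Cdkn2c (ENSMUSG00000028551, chr4:109660876-109667189, minus strand) encodes p18, another inhibitor of Cdk4 and Cdk6. Cdkn2c had 904 and 609 normalized counts in WT, against 1839 and 1032 in the KO-labelled libraries. Both KO-labelled libraries exceeded both WT libraries, with KO replicate 2 nearest to WT replicate 1. The mean was 1.90 times that of WT, 1435 ± 571 against 756 ± 209 (SD, n = 2 each). The log2 difference was 0.89 (standard error 0.41, 95% interval -0.14 to 1.93, unadjusted p = 0.0787 and adjusted p = 0.422 from limma). Cdkn2d (ENSMUSG00000096472, chr9:21288410-21291407, minus strand), which encodes p19Ink4d, had 382 and 452 normalized counts in WT, against 614 and 356 in the KO-labelled libraries. The groups overlapped, with a log2 difference of 0.17 (standard error 0.39, adjusted p = 0.879 from limma) that was -0.22 without KO replicate 1. Of the 4 INK4 genes, Cdkn2b was thus lower and Cdkn2c higher in both KO-labelled libraries, and Cdkn2a and Cdkn2d had 1 of these libraries on either side of WT. The difference between these genes was not tested.

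**Figure D2:**
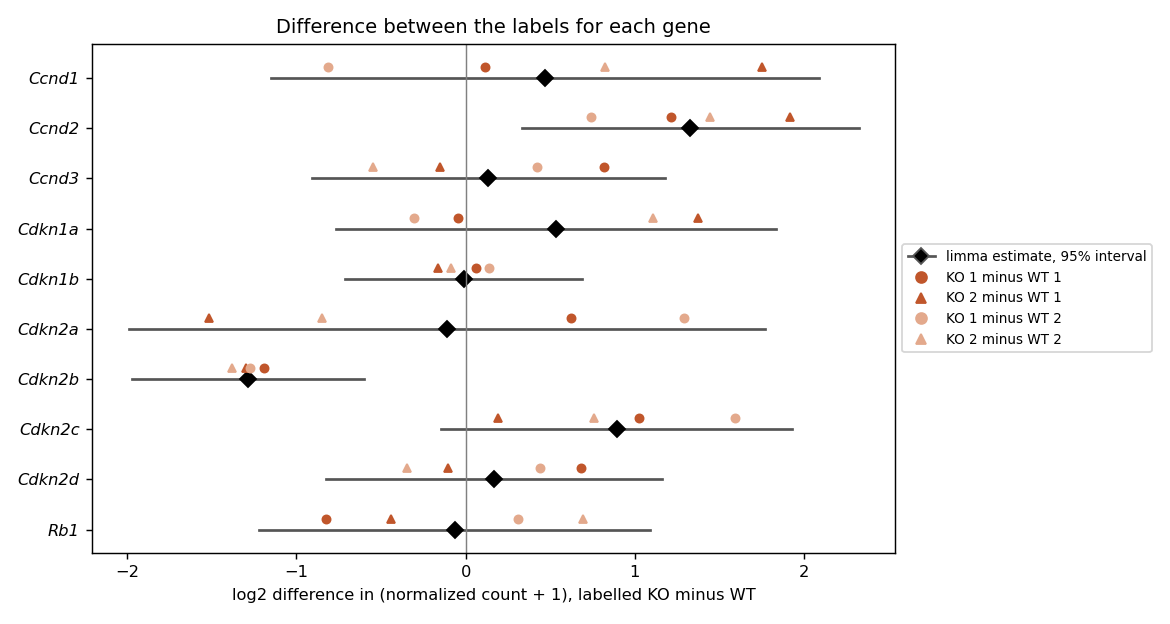
Log2 difference in normalized count + 1 between the libraries labelled KO and WT for each gene. Diamonds are limma estimates with 95% intervals, and small symbols are the 4 differences between single libraries. The 4 small symbols of Cdkn2b lie together from -1.38 to -1.19, those of Cdkn2a spread from -1.51 to 1.29.

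Summed over the 6 inhibitors, the FPKM was 237 and 229.8 in WT, against 209 and 267 in the KO-labelled libraries. Cdkn2b made up 32.6% and 34.2% of this sum in WT and 14.6% and 11.7% in the KO-labelled libraries. The mean share was lower by 20.3 percentage points, without overlap (exact permutation test, two-sided p = 0.33, the smallest p possible). In WT Cdkn2b had the largest share of the 6 inhibitors in both libraries. In the libraries labelled KO the largest share was that of Cdkn1a, with 25.5% and 58.7%, against 25.7% and 30.6% in WT. Cdkn2c held 7.09% and 4.73% in WT, against 14.8% and 7.13% in the KO-labelled libraries (exact permutation p = 0.33). WT replicate 1 and KO replicate 2 were nearly equal in this share, so the labels were barely separated. The INK4 genes together had 130 and 118 FPKM in WT, against 113 and 69.7 FPKM in the KO-labelled libraries. The ratio of the D-type cyclins to the inhibitors, in summed FPKM, was 0.570 and 0.956 in WT, against 0.896 and 1.66 in the KO-labelled libraries, with overlap between the labels.

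**Figure D3:**
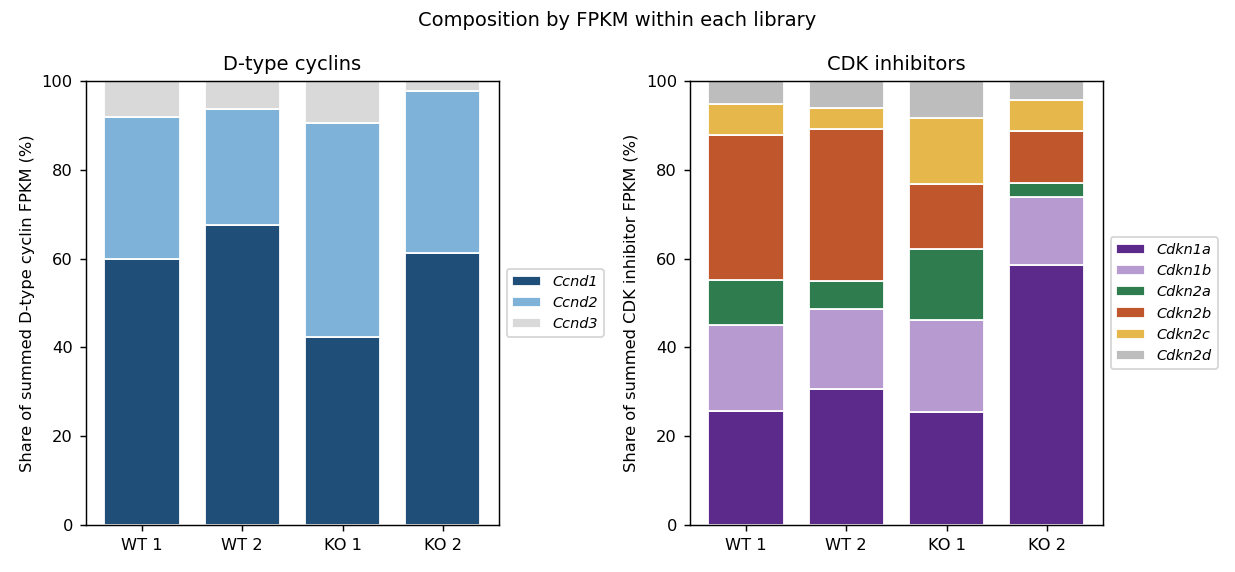
Share in percent of the summed FPKM of the 3 D-type cyclins (left) and of the 6 CDK inhibitors (right) in each of the 4 libraries. The Cdkn2b block is 32.6% and 34.2% in WT and 14.6% and 11.7% in the KO-labelled libraries, and the Ccnd2 block is larger in both of these.

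Rb1 (ENSMUSG00000022105, chr14:73183673-73325822, minus strand), the pocket protein that D-type cyclin complexes phosphorylate, had 1271 and 579 normalized counts in WT, against 718 and 936 in the KO-labelled libraries. Both libraries labelled KO lay between the WT libraries, which differed 2.19-fold from each other. The log2 difference was -0.07 (standard error 0.46, 95% interval -1.22 to 1.09, adjusted p = 0.964 from limma).

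Over the 10 members, limma gave 1 gene with a higher level in the KO-labelled libraries at an unadjusted p under 0.05 (Ccnd2) and 1 with a lower level (Cdkn2b). Over all 22094 tested genes, 4.54% were higher and 9.18% lower at that threshold. Both KO-labelled libraries exceeded both WT libraries for 2 members (Ccnd2 and Cdkn2c), against 22.5% of all tested genes, and they lay below both for 1 (Cdkn2b), against 25.4%. At an adjusted p under 0.05, limma called 0 members and 0 (0%) of all tested genes, with 3032 genes at an unadjusted p under 0.05. edgeR called 0 genes with 2733 at an unadjusted p under 0.05. DESeq2 called 1.64% of its 17382 tested genes as higher and 4.62% as lower, and of the members Cdkn2b alone. The median log2 difference of the members was 0.15, beside -0.07 for all tested genes. Counts of 1 or 2 among 10 members are near these shares over all genes. With quantile normalization the split over all genes at an unadjusted p under 0.05 was 1371 higher and 1537 lower, beside 1004 and 2028 as deposited, and the same 2 members passed. The 2 libraries labelled KO differed by more than 2-fold for 3 members, Ccnd1, Cdkn1a and Cdkn2a, and the WT libraries for Rb1 only. Among all 12868 genes with a mean of at least 50, these shares were 28.6% and 10.7%. Ccnd1, Ccnd2, Ccnd3, Cdkn1a and Rb1 overlap annotated antisense genes in GENCODE M21, and whether the reads were counted by strand is not given in the sources used here. The other 5 members overlap no annotated gene.

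Of 9 partners and targets of the D-type cyclins, 5 were higher and 1 lower in both KO-labelled libraries, and 3 overlapped. Over all tested genes, 22.5% were higher and 25.4% lower in this way. In limma, 3 were higher at an unadjusted p under 0.05 (4.54% of all tested genes) and 0 were lower (9.18%). At an adjusted p under 0.05, 0 passed in limma. DESeq2 called 1 as higher, beside 1.64% of its tested genes. Cdk6, a catalytic partner, had 1379.6 and 1515 normalized counts in WT, against 2465 and 3165 in the KO-labelled libraries (log2 difference 0.95, standard error 0.29, adjusted p = 0.286 from limma). Its groups did not overlap. Cdk4, the other catalytic partner, had 1938 and 2629 normalized counts in WT, against 3151 and 4011 in the KO-labelled libraries (0.66, standard error 0.32, adjusted p = 0.436 from limma). Cdk2, the kinase that E-type and A-type cyclins use, had 307 and 395 in WT, against 583 and 731 in the KO-labelled libraries (0.90, standard error 0.34, adjusted p = 0.35 from limma). For each of the 3 kinases both KO-labelled libraries exceeded both WT libraries.

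Ccna2, the S-phase cyclin, had 35.2 and 118 normalized counts in WT, against 435 and 528 in the KO-labelled libraries (log2 difference 2.87, standard error 0.65, adjusted p = 0.204 from limma, 0.004 from DESeq2). It is the member of this list that DESeq2 called. The E-type cyclins overlapped between the labels, with Ccne1 at 32.0 and 80.0 in WT, against 65.3 and 93.7 in the KO-labelled libraries, and Ccne2 at 53.3 and 33.1 against 37.5 and 233. The phosphatase gene Cdc25a had 260.3 and 269 in WT, against 280.4 and 442 in the KO-labelled libraries. Of the relatives of Rb1, Rbl2, the pocket protein of resting cells, had 1842 and 1841 normalized counts in WT, against 1415 and 647 in the KO-labelled libraries, whereas Rbl1 had 202 and 200.5 against 184 and 504. The log2 difference of Rbl2 was -0.94 (standard error 0.44, adjusted p = 0.422 from limma). Without each library in turn, between 1 and 5 of the 9 genes had an unadjusted p under 0.05. Without KO replicate 2, 6 of the 9 had a positive difference and 1 passed, and 1 passed without either WT library.

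Of 10 E2F and DP factors, 5 were above WT in both KO-labelled libraries and 0 below, beside 22.5% and 25.4% of all tested genes. At an unadjusted p under 0.05 in limma, 2 were higher and 0 were lower. Over all tested genes, 4.54% were higher and 9.18% lower. The 2 genes were E2f7 and E2f8, which are among the repressors of the family. DESeq2 called E2f7 alone (adjusted p = 0.025), beside 1.64% of its tested genes called as higher. E2f7 had 9.60 and 42.3 normalized counts in WT, against 139 and 180.3 in the KO-labelled libraries (log2 difference 2.90, standard error 0.80, adjusted p = 0.254 from limma). E2f8 had 1.07 and 45.1 against 99.5 and 201, where the lowest WT value is a single read. E2f1, the classical activator, overlapped, with 480.1 and 434 in WT, against 369 and 456 in the KO-labelled libraries. Tfdp1, a partner of E2F proteins, had 1101 and 1538 against 1835 and 2292. The number of E2F and DP factors at that threshold was 0 without WT replicate 1, KO replicate 1 or KO replicate 2. DESeq2 called 6 of the 10 genes of cycling cells, beside 1.64% of its tested genes called as higher. In limma, all 10 were higher at an unadjusted p under 0.05, with a median log2 difference of 2.86. That number was 2 without WT replicate 1, 9 without WT replicate 2, 4 without KO replicate 1 and 0 without KO replicate 2, with 10 of 10 higher each time. Mki67 had 10.7 and 80.0 normalized counts in WT, against 203 and 1091 in the KO-labelled libraries, Ccnb1 4.27 and 159 against 545 and 683, and Bub1 3.20 and 23.0 against 70.6 and 317.

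In the p53 pathway, which controls Cdkn1a, 10 of 20 genes had a positive difference and 10 a negative one. Of the 20, 0 were higher and 2 lower at an unadjusted p under 0.05 (Gadd45a and Fas), beside 9.18% lower over all tested genes. Gadd45a, a stress-induced growth arrest gene, had 1849 and 1415 normalized counts in WT, against 732 and 695 in the KO-labelled libraries (log2 difference -1.18, standard error 0.30, adjusted p = 0.233 from limma). Plk2 had 205 and 408 in WT, against 413 and 2142 in the KO-labelled libraries, and Perp 90.7 and 88.3 against 83.5 and 617. For both genes KO replicate 2 was far above the other libraries, as it was for Cdkn1a. Without KO replicate 1, 7 of the 20 genes were higher and 3 lower at an unadjusted p under 0.05, and without KO replicate 2, 0 were higher and 5 lower. Without WT replicate 1, 0 were lower at that threshold, and without WT replicate 2, 1 was. Of 13 Polycomb genes, whose complexes are known to silence the Cdkn2a and Cdkn2b locus, 0 were higher and 1 lower at an unadjusted p under 0.05, again near the 9.18% over all tested genes. This was Cbx7, with 2408 and 1825 normalized counts in WT, against 513 and 143 in the KO-labelled libraries (-2.95, standard error 0.64, adjusted p = 0.195 from limma, 0.003 from DESeq2). Ezh2, the histone methyltransferase, had 275 and 257 in WT, against 394 and 928 in the KO-labelled libraries (1.18, standard error 0.49, adjusted p = 0.378 from limma). Its relative Ezh1 had 1015 and 840.5 against 734 and 422. Without either WT library, 0 Polycomb genes were lower at an unadjusted p under 0.05, and without KO replicate 1, 2 were higher and 2 lower.

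Among 13 genes for the turnover of p27 and the D-type cyclins, 7 were above WT in both KO-labelled libraries and 2 below. Over all tested genes, 22.5% were above and 25.4% below in this way. At an unadjusted p under 0.05 in limma, 1 was higher and 0 were lower, near the 4.54% and 9.18% over all tested genes. Cks1b, a cofactor that brings p27 to the ubiquitin ligase subunit Skp2, had 171 and 231 normalized counts in WT, against 428 and 776 in the KO-labelled libraries (log2 difference 1.53, standard error 0.43, adjusted p = 0.264 from limma). Skp2 had 130.2 and 189 in WT, against 217 and 413 in the KO-labelled libraries, and Cops5 1408 and 1928 against 2633 and 2422. The count of 1 was 0 without WT replicate 1, WT replicate 2 or KO replicate 2, and 3 higher and 1 lower without KO replicate 1. Of 19 mitogen and Myc inputs, 0 were higher and 1 lower at an unadjusted p under 0.05, no more than the 4.54% and 9.18% over all tested genes would give. This was Mycl, with 264 and 638 against 149 and 171 (-1.36, standard error 0.52, adjusted p = 0.358 from limma). Egr1, a target of growth factor signalling, had 197 and 646 normalized counts in WT, against 801 and 1682 in the KO-labelled libraries. Fosl1, another such target, had 105 and 126 against 140.2 and 1344. Myc overlapped, with 676 and 794 against 377 and 1138. Without WT replicate 2, 1 gene of this list was higher and 0 lower, without KO replicate 1, 1 was higher and 3 lower, and without KO replicate 2, 0 were higher and 2 lower. With quantile normalization the count was 0.

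**Figure D4:**
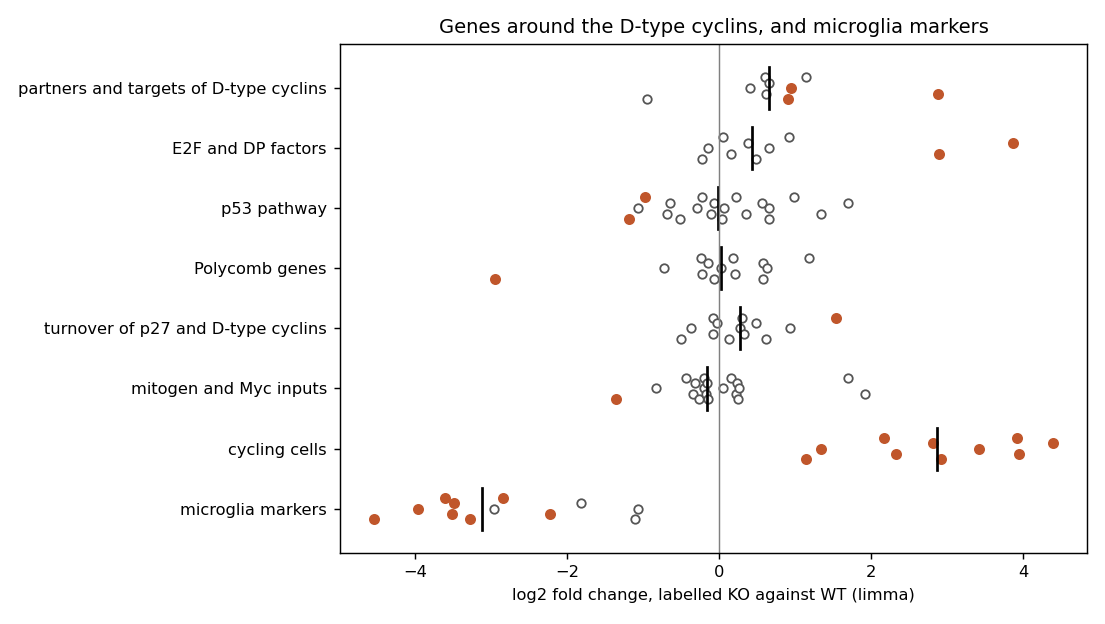
Log2 fold change in limma of each gene of 7 lists around the D-type cyclins and of the 12 microglia markers. Filled points have an unadjusted p under 0.05, open points do not, and bars are medians. The genes of cycling cells lie to the right (median 2.86) and the microglia markers to the left (median -3.12), with the other medians between -0.16 and 0.66.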

How the data were processed

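RNA-seq was analysed from 4 libraries of cultured astrocytes, 2 labelled WT and 2 labelled KO, grouped by their titles. The authors filtered paired-end reads and aligned them to mm10, the build that the submitters' processing notes also name. The counting program and annotation are not given in the sources used here. In the deposited table, each gene has 1 signal value in each library. The file is named for FPKM, but the values are read counts over a size factor: all (100%) were whole multiples of 1 step per library (tolerance 0.1 read), so reads were recovered, at 18749610 to 22673555 per library. The authors deposited p-values and log2 fold changes of their own, and the mean signal of each genotype, which were not used. FPKM was computed from the reads, the listed gene lengths and the library totals. The file held 0 columns of other samples.

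Genotypes were compared with limma 3.58.1 in R 4.3.3 (eBayes with a trend, no block) on log2(normalized count + 1), a scale that understates changes of low genes, for genes whose mean was at least 1, and p-values were adjusted over all of these by the Benjamini-Hochberg method. The planned test was kept. As alternatives, recovered reads were tested by quasi-likelihood in edgeR 4.0.16 and by DESeq2 1.42.0, beside other pseudocounts, filters, scalings, FPKM, a replicate block and leaving out each library. The tests were tried on simulated counts that had less spread than edgeR estimated here, and the same spread under both labels. That trial therefore does not show how the tests behave on these data. Named genes are the members and Tet1, all partners of the D-type cyclins, and from each further list the 3 genes with the largest difference among those with a mean of at least 50. E2f1, Fas, Myc, Mtap and the cell type markers fall outside this rule and were named after their values were seen. The members and lists were chosen with earlier results of these data known. The settings for counts within lists were chosen after seeing the data. Plots were made with matplotlib 3.10.9.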

Additional observations from a re-analysis of the deposited data

How the results depend on the processing

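Each label had 2 libraries, and every member had at least 218 reads in each library. Quantile normalization moved the median log2 difference of all genes from -0.07 to 0.06, and the other scalings moved it by less than 0.1. Ccnd2 and Cdkn2c were higher and Cdkn2b lower under every alternative run. Leaving out each library gave -1.34 to -1.23 for Cdkn2b, whose adjusted p was under 0.05 only in DESeq2 (-1.29, adjusted p = 0.0302), which called 1 member and 1088 genes in all, against 0 in limma; the cause was not tested. With each library left out, 1 to 3 members and 1135 to 4846 genes had an unadjusted p under 0.05, against 2 members and 3032 genes with all libraries. Ccnd2 lost that p without either WT library, Cdkn1a gained it without KO replicate 1, Cdkn2c gained it and Ccnd2 lost it without KO replicate 2, and Cdkn2b kept it each time. The sign of the other members depended on single libraries. Left-out libraries gave -0.35 to 1.29 for Ccnd1, -0.35 to 0.62 for Ccnd3, -0.17 to 1.24 for Cdkn1a, -0.12 to 0.10 for Cdkn1b, -1.18 to 0.96 for Cdkn2a, -0.22 to 0.56 for Cdkn2d and -0.63 to 0.50 for Rb1. Cdkn2a also turned to 0.0057 with quantile normalization, 0.18 with edgeR and 0.22 with DESeq2. The share of Ccnd2 among the D-type cyclins stayed higher (7.47 to 19.2 percentage points) and that of Cdkn2b among the inhibitors lower (-21.7 to -18.8) with each library left out. In those fits the lone library of a label is assumed to vary like the other label's. The libraries carry replicate numbers that the labels do not describe as a pairing, and same-numbered libraries deviated with a correlation of -0.084 over 22094 genes. With the replicate block, 2583 genes and the same 2 members, Ccnd2 and Cdkn2b, had an unadjusted p under 0.05, and 0 genes passed after adjustment.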

Other observations

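Markers of the other cell types that such a culture can hold were read out of the same table. The 8 genes of the oligodendrocyte lineage summed to 153 and 228 FPKM in WT, against 370.1 and 231 FPKM in the KO-labelled libraries. Nearly all of it came from Olig1 and Olig2. One by one, 3 had a positive and 5 a negative difference (median log2 difference -0.40). In both KO-labelled libraries, 1 was higher (Olig2) and 2 were lower (Cspg4 and Mbp). At an unadjusted p under 0.05 in limma, 0 were higher and 1 lower (Cspg4). The 6 neural stem cell genes summed to 490.2 and 642 FPKM in WT, against 838 and 739 FPKM. Of these, 4 had a positive and 2 a negative difference (median log2 difference 0.23). In both KO-labelled libraries, 1 was higher (Nes) and 1 lower (Sox2, log2 difference -0.73). Nes, the intermediate filament of progenitors, was the gene with an unadjusted p under 0.05 in limma (log2 difference 1.43). The 7 genes of meningeal fibroblasts summed to 24.4 and 31.0 FPKM in WT, against 28.6 and 20.5 FPKM, a sum of which Pdgfrb was the largest part. At an unadjusted p under 0.05 in limma, 1 was higher (Col1a2, log2 difference 1.42) and 1 lower (Dcn, -2.12). The 4 ependymal genes summed to 118 and 182 FPKM in WT, against 135 and 29.5 FPKM, nearly all of it from Foxj1. All 4 had a negative difference and 2 were lower in both KO-labelled libraries. Of these, Dnah5, an axonemal dynein of motile cilia, had 578 and 292 normalized counts in WT, against 93.1 and 17.1 (log2 difference -3.32, adjusted p = 0.246 from limma, 0.009 from DESeq2). Of 8 neuronal genes, 7 were tested and 2 (Tubb3 and Dcx) were higher at an unadjusted p under 0.05. Among the astrocyte markers, Slc1a2 and Sox9 were lower at that threshold, by -2.58 and -1.15 on the log2 scale. No gene passed after adjustment in limma. Over all tested genes, 4.54% were higher and 9.18% lower at an unadjusted p under 0.05. Both KO-labelled libraries lay above both WT libraries for 22.5% of them and below both for 25.4%. Genes singled out here were chosen after their values were seen.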
